A study of Mus musculus with 10 samples.

Results

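The 45 genes described here encode proteins that carry a cell through mitosis and cytokinesis, from the cyclin-dependent kinase that starts mitosis to the GTPase regulators that close the cleavage furrow. They were taken by symbol from a fixed list of names, and a probe set was assigned to a gene where the platform's annotation gave it exactly 1 symbol. The probe set with the highest mean signal over the 10 arrays stood for each gene. All 45 names were found, among 18193 genes measured in all. The rule itself uses no difference between genotypes, but the genes were chosen with earlier results of these data known.

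The study profiled whole hearts of female mouse embryos at 13.5 dpc (days post coitum) on Affymetrix expression arrays, 5 arrays for each of 2 genotypes. The knockout embryos carried a heart-conditional heterozygous knockout of Hccs, and the controls were littermates labelled only as control. Each array held RNA pooled from 4 to 5 hearts of 1 genotype, so an array averages over several embryos and over all cell types of the heart. Hccs encodes holocytochrome c synthase, which attaches heme to cytochrome c in mitochondria, and the gene lies on the X chromosome, so in a heterozygous female each cell keeps active either the intact or the deleted copy. The Cre driver, the deleted part of Hccs and the full genotype of the controls are not given in the sources used here. The series title calls the hearts regenerating, and the comparison bears on whether transcripts of dividing cells differ between such hearts and normal hearts of the same age.

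Cells enter mitosis when cyclin-dependent kinase 1 is bound by A- and B-type cyclins and its inhibitory phosphates are removed by Cdc25 phosphatases. Kinetochores then attach chromosomes to spindle microtubules, and the spindle checkpoint holds back the anaphase-promoting complex until all are attached; the complex then marks securin and cyclin B for destruction, which frees separase to cut cohesin. Most of these genes are transcribed late in the cell cycle through a promoter element called the cell cycle genes homology region (CHR), bound by MuvB complexes with B-Myb and FoxM1, and cardiomyocytes of the embryonic heart still divide.

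The label check came first. Hccs signal was 11.23 ± 0.08 (log2, mean ± SD, n = 5) in control hearts and 10.68 ± 0.20 (n = 5) in knockout hearts. Every knockout array lay below every control array. Hccs fell by 31.7% (log2 change -0.55, 95% interval -0.75 to -0.35, limma adjusted p = 0.0225; exact two-sided permutation p = 0.00794, the smallest that 252 splits of the arrays allow). The limma call was lost in 9 of 23 alternatives, 1 of them a stricter threshold of 0.01; over all 23 the adjusted p ran from 0.00976 to 0.109. Whether the probes lie inside the deleted part is not known here.

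At the adjusted threshold, the share of the 45 mitosis genes called was close to the share of all genes called. In knockout hearts 1 gene fell, Pttg1, and none rose at a Benjamini-Hochberg adjusted p under 0.05 (limma, two-sided, adjusted over all 18193 genes), and 44 did not pass. That is 2.22% of the list, beside 2.58% of all genes called in either direction, 1.63% called higher and 0.945% called lower. At an unadjusted p under 0.05 the same model held 15 of the 45, 8 of them higher and 7 lower, which is 33.3% beside 20.6% of all genes. These shares of all genes include dimmer genes, and the share called among brighter genes alone is not given. The median log2 change of the list was 0.010, with 24 positive and 21 negative values, beside 0.025 for all genes and 0.010 for the 9096 genes above the median signal. Single genes ran from -0.45 for Cenpf to 0.48 for Cenph, and the middle of the list, between its quartiles, from -0.09 to 0.10; the quartiles of the brighter genes at large were -0.11 and 0.14. Genes whose 5 knockout arrays all lay on one side of the 5 control arrays numbered 1 of 45 (2.22%), beside 5.79% of all genes.

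A gene that missed the threshold is not thereby shown to be equal between the genotypes, so the intervals matter more than the count. The 95% interval of the log2 change reached 0.08 to 0.38 to either side, with a median of 0.16. It lay wholly inside ±0.2 (a 1.15-fold change) for 13 genes, inside ±0.3 (1.23-fold) for 24, inside ±0.5 (1.41-fold) for 40 and inside ±1 (2-fold) for all 45. For 30 genes it included 0. All 45 probe sets were brighter than the median of the 18193 genes, a log2 signal of 6.50, and the dimmest had a mean of 7.06. In bulk hearts, fewer cells of a type and less RNA per cell cannot be told apart, and this holds for every value given here.

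**Figure D1:**
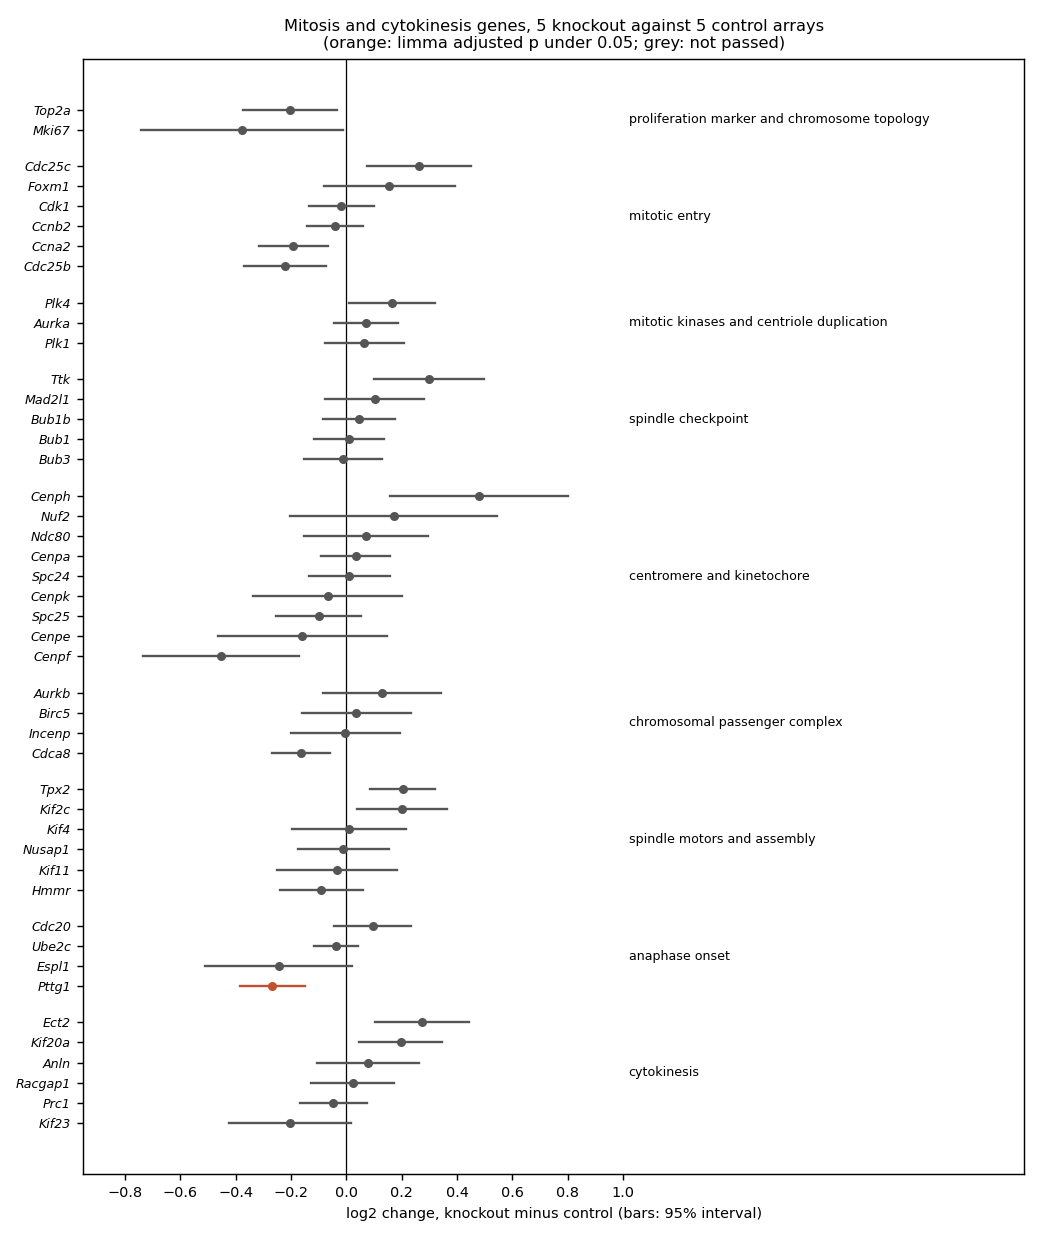
Log2 change, knockout minus control, of the 45 mitosis and cytokinesis genes (x axis, log2 units; points are limma estimates from 5 arrays a genotype, bars their 95% intervals), grouped by role. Only Pttg1, in orange, passed the adjusted threshold, and the points of every role lie between -0.45 and 0.48.

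What most of the genes share in sequence is the CHR. RefSeq promoter windows (GRCm38.p6, 250 bases before to 50 bases after the annotated start) were matched by symbol for 37 of the 45 genes, 42 windows in all. Kif20a, Foxm1, Incenp, Cdc25c, Aurkb, Ccna2, Tpx2 and Spc24 had no window in the search. Windows of the list on a single chromosome were left out of it, while the windows over all genes kept that chromosome. The windows were searched on both strands for the CHR, written as TTTGAA or TTCGAA, and for the CCAAT box bound by NF-Y, written as CCAAT, each motif on its own whether or not the matches shared bases. The CHR was present in 31 of the 42 windows (73.8%), beside 19.2% of 32851 windows of the same length over all genes. The CCAAT box was present in 33 (78.6%), beside 37.4%, and both together in 28 (66.7%), beside 7.52%. Windows of a gene with several annotated starts can overlap, so the 41 CHR matches counted per window were 37 distinct sites, and 27 of these began within 50 bases of an annotated start of their gene. A match is a run of letters and was not tested for binding.

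Of the 41 CHR matches, 20 lay after the annotated start and 9 in the 50 bases before it. Stretches before the start of 6 genes follow as examples, so matches after the start are not shown. Each is written 5′ to 3′ on the gene's strand and ends at the base before the annotated start. Capitals mark the CHR, which reads TTCAAA where it lies on the other strand.

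Cdk1, chr10:69352913-69353012, minus strand: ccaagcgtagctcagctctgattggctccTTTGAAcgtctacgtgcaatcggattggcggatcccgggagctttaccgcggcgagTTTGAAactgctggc
Ube2c, chr2:164769829-164769928, plus strand: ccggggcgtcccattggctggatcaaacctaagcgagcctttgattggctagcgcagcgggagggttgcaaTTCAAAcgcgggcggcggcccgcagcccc
Cdc20, chr4:118437344-118437443, minus strand: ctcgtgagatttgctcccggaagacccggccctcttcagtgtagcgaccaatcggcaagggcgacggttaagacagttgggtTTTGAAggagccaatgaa
Kif11, chr19:37376282-37376381, plus strand: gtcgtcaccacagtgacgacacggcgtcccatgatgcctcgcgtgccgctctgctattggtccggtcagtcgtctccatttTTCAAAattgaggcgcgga
Mki67, chr7:135716380-135716509, minus strand: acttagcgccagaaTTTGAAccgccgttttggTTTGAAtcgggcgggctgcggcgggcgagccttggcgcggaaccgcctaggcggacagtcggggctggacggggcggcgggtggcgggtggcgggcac
Pttg1, chr11:43425982-43426081, minus strand: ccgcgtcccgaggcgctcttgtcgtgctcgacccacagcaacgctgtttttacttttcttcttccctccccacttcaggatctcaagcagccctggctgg

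Cdk1 had a CHR beginning 71 and another 15 bases before the start, Ube2c had one at 29, Cdc20 at 18 and Kif11 at 19. The printed stretch of Cdk1, of Ube2c and of Cdc20 each held 2 CCAAT boxes and that of Kif11 held 1. Mki67 had its CHR matches farther out, at 116 and 98 bases before the start, with no CCAAT box in the printed 130 bases; its whole window held 3, the nearest 141 bases before the start. Pttg1, the gene that passed the adjusted threshold, had no CHR and no CCAAT box in its printed 100 bases or in the rest of its window. The 28 genes with a CHR had a median log2 change of -0.02, with 13 positive and a range of -0.45 to 0.30. The 9 genes with a window but no CHR had a median of 0.04, with 5 positive and a range of -0.27 to 0.48. These values overlap broadly and are given as a description, since genes of a list are not replicates.

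**Figure D2:**
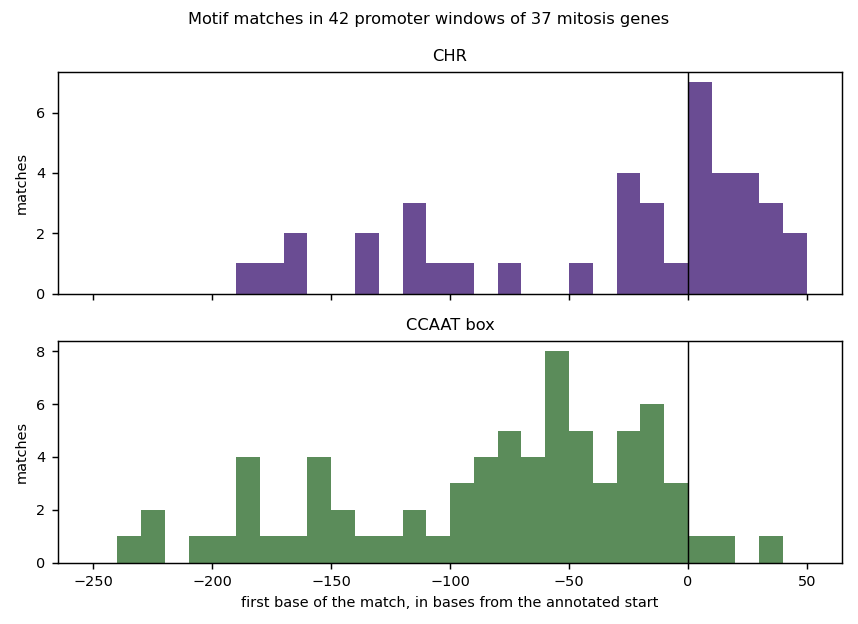
Positions of CHR matches (top) and CCAAT boxes (bottom) in the 42 promoter windows of 37 mitosis genes, as the number of matches (y axis) by distance of the first base of the match from the annotated start (x axis, bases). Matches are counted once per window, so a site in overlapping windows of a gene appears more than once. Of the 41 CHR matches, 29 lie within 50 bases of the start, 20 of them after it, and CCAAT boxes mostly lie upstream of it.

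Of the genes used to mark dividing cells, neither the proliferation marker Mki67 nor Top2a passed. Mki67, which encodes the Ki-67 protein that coats mitotic chromosomes and is widely used to mark cycling cells, gave 11.49, 11.92, 12.003, 11.53 and 11.10 in control replicates 1 to 5 and 11.29, 10.96, 11.40, 11.27 and 11.23 in knockout replicates 1 to 5. Controls 2 and 3 stood high, while control 5 lay inside the knockout range, so the groups overlapped. The control mean was 11.61 ± 0.36 and the knockout mean 11.23 ± 0.16 (SD, n = 5), which is -0.38 on the log2 scale (SE 0.16, 95% interval -0.74 to -0.01, limma adjusted p = 0.231). Top2a encodes topoisomerase II alpha, which untangles sister chromatids. Its control arrays gave 12.22, 12.40, 12.55, 12.34 and 12.16 and its knockout arrays 12.12, 11.98, 12.17, 12.14 and 12.23. Controls 2 and 3 were again the highest, knockouts 3 and 5 lay above control 5, the lowest control, and the log2 change was -0.21 (SE 0.08, limma adjusted p = 0.172).

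None of the 6 genes of mitotic entry passed. Cdk1, the kinase that drives entry, gave 12.33, 12.36, 12.16, 12.34 and 12.45 in controls and 12.31, 12.26, 12.39, 12.26 and 12.32 in knockouts. The 5 knockout arrays all lay inside the control range, and the log2 change was -0.02 with a 95% interval of -0.14 to 0.10 (limma adjusted p = 0.866). Its partner cyclin B2, Ccnb2, gave 11.82, 11.93, 11.93, 11.92 and 11.95 in controls and 11.78, 11.78, 11.88, 11.95 and 11.95 in knockouts. The groups overlapped, with 2 knockout arrays below every control and a log2 change of -0.04 (interval -0.14 to 0.06, adjusted p = 0.627). Cyclin A2, Ccna2, which acts in S phase and at entry, gave 11.98, 12.16, 12.11, 12.10 and 12.28 in controls and 11.95, 12.003, 11.97, 11.93 and 11.82 in knockouts. Control 1 alone fell among the knockouts, and the log2 change was -0.19 (SE 0.06, adjusted p = 0.102). The Cdc25 phosphatases, which activate Cdk1, differed in sign. Cdc25b had a log2 change of -0.22 (SE 0.07, adjusted p = 0.112), with 3 knockout arrays below every control. Cdc25c had 0.26 (SE 0.08, adjusted p = 0.130), with 4 knockout arrays above every control. Foxm1, the transcription factor of late cell cycle genes, had 0.16 (adjusted p = 0.429); knockout 5 read 7.52 and the other 9 arrays 7.13 or less.

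The 3 genes of mitotic kinases, one of which controls centriole duplication, had small positive values that did not pass. Plk4, the kinase that starts centriole duplication and the brightest probe set of the role, gave 11.05, 10.93, 10.89, 11.06 and 11.10 in controls and 11.00, 11.10, 11.33, 11.14 and 11.27 in knockouts. Knockout 1 lay among the controls and the other 4 knockouts above them, and the log2 change was 0.17 (SE 0.07, limma adjusted p = 0.217). Aurka, the centrosomal Aurora kinase, had a log2 change of 0.07 (adjusted p = 0.458). Plk1, polo-like kinase 1, which acts from entry to cytokinesis, also had 0.07 (adjusted p = 0.584).

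None of the spindle checkpoint genes passed. Bub3, which binds kinetochores with Bub1 and BubR1, is the brightest of the 5 checkpoint probe sets. It gave 11.89, 11.90, 11.69, 11.90 and 12.04 in controls and 11.87, 11.78, 11.99, 11.84 and 11.86 in knockouts. The knockout arrays lay inside the control range, with a log2 change of -0.01 (interval -0.15 to 0.13, limma adjusted p = 0.924). Bub1, a checkpoint kinase, had 0.01, Bub1b, which encodes BubR1, had 0.04, and Mad2l1, the Cdc20-binding Mad2, had 0.10. Ttk, the Mps1 kinase at the top of the checkpoint, stood apart with 0.30 (SE 0.09, interval 0.10 to 0.50, adjusted p = 0.107). Its control arrays gave 8.96, 9.41, 9.11, 9.13 and 9.16 and its knockout arrays 9.41, 9.40, 9.68, 9.43 and 9.34. Control 2 reached the knockout range, and the other 4 controls lay below it.

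The 9 genes of the centromere and kinetochore held both ends of the list, and none passed. Cenpf, a large protein of the outer kinetochore, gave 10.36, 10.51, 10.51, 10.04 and 9.95 in controls and 9.93, 9.62, 10.01, 9.82 and 9.73 in knockouts. Controls 1 to 4 stood above all knockouts, control 4 only just, and control 5 lay below knockout 3 alone. The log2 change was -0.45 (SE 0.13, interval -0.74 to -0.17, limma adjusted p = 0.0928). Cenph, a subunit of the inner kinetochore, gave 7.81, 8.29, 7.70, 7.93 and 8.24 in controls and 8.09, 8.45, 8.69, 8.57 and 8.59 in knockouts. Knockout 1 lay below controls 2 and 5, and the other 4 knockouts lay above every control; the log2 change was 0.48 (SE 0.14, interval 0.16 to 0.80, adjusted p = 0.110). Cenpa, the histone H3 variant that marks centromeres, is the brightest probe set of the role. It gave 11.83, 11.93, 11.72, 11.85 and 11.97 in controls and 11.81, 11.99, 11.96, 11.88 and 11.82 in knockouts. The ranges nearly coincided, with a log2 change of 0.03 (interval -0.09 to 0.16, adjusted p = 0.764).

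The 4 subunits of the Ndc80 complex, which binds microtubules at the outer kinetochore, had log2 changes of 0.07 for Ndc80, 0.17 for Nuf2, 0.01 for Spc24 and -0.10 for Spc25, none past the threshold. Nuf2 was also the noisiest gene of the list, with a within-group SD of 0.29, so its interval was the widest. Cenpe, the kinesin that moves chromosomes to the spindle equator, had -0.16 and Cenpk, another inner kinetochore subunit, had -0.07.

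No subunit of the chromosomal passenger complex passed. Aurkb, the kinase subunit that corrects faulty attachments and is often stained to mark cytokinesis in the heart, gave 9.45, 9.56, 9.67, 9.68 and 9.73 in controls and 9.66, 9.58, 10.09, 9.73 and 9.67 in knockouts. Knockout 3 stood above all other arrays, and the other 4 knockouts lay inside the control range. The log2 change was 0.13 (interval -0.09 to 0.34, limma adjusted p = 0.469). A second Aurkb probe set (mean 9.28 against 9.68) had 0.34 (interval 0.03 to 0.65) and did not pass (limma adjusted p = 0.215 over all probe sets). Birc5, survivin, which brings the complex to centromeres, gave 12.16, 12.32, 12.18, 12.34 and 12.32 in controls and 12.22, 12.47, 12.52, 12.22 and 12.07 in knockouts. Its knockout arrays spread on both sides of the controls, with a log2 change of 0.04 (interval -0.16 to 0.23, adjusted p = 0.841). Incenp, the scaffold subunit, had 0.00 (interval -0.20 to 0.19). Cdca8, borealin, had -0.16 (SE 0.05, adjusted p = 0.0985), with 4 knockout arrays below every control. Another Cdca8 probe set of nearly equal signal (mean 11.43 against 11.44) went the other way, with 0.10, and a dimmer one (10.14) had -0.03. The fall is thus seen in the brightest of its probe sets only.

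Nor did any of the 6 genes of spindle motors and assembly. Tpx2, which activates Aurora A on spindle microtubules, came second to Pttg1 in the list by p. It gave 9.53, 9.67, 9.61, 9.49 and 9.55 in controls and 9.77, 9.64, 9.90, 9.76 and 9.79 in knockouts. Only knockout 2 fell within the control range, and the log2 change was 0.20 (SE 0.05, interval 0.09 to 0.32, limma adjusted p = 0.0738). A second Tpx2 probe set above the median signal had 0.00 (adjusted p = 0.991 over all probe sets). Nusap1, a microtubule bundling protein and the brightest probe set of the role, gave 11.28, 11.39, 11.13, 11.31 and 11.40 in controls and 11.15, 11.16, 11.46, 11.35 and 11.33 in knockouts. The groups spanned nearly the same range, with a log2 change of -0.01 (interval -0.18 to 0.15, adjusted p = 0.939). Kif2c, the microtubule-depolymerising kinesin MCAK, had 0.20 (SE 0.07, adjusted p = 0.165). Kif11, the kinesin that pushes spindle poles apart, had -0.03, the chromokinesin Kif4 had 0.01, and Hmmr, a spindle pole protein, had -0.09.

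The gene that passed, Pttg1, acts at anaphase onset. It encodes securin, the inhibitor that holds separase inactive until the anaphase-promoting complex destroys it. Its control arrays gave 12.57, 12.52, 12.50, 12.56 and 12.60 and its knockout arrays 12.42, 12.26, 12.12, 12.30 and 12.30. All 5 knockouts lay below all 5 controls, knockout 3 the lowest and knockout 1 the nearest to the controls. The control mean was 12.55 ± 0.04 and the knockout mean 12.28 ± 0.11 (SD, n = 5). Pttg1 fell by 17.0% (log2 change -0.27, SE 0.05, interval -0.39 to -0.15, limma adjusted p = 0.0349). A second Pttg1 probe set above the median signal did not show the difference. It read 10.72 ± 0.14 in controls and 10.72 ± 0.09 in knockouts, a log2 change of 0.00 (SE 0.07, interval -0.16 to 0.16, adjusted p = 0.988 over all probe sets), and the intervals of these probe sets barely meet. The fall of Pttg1 thus rests on the brightest of its probe sets, and its adjusted p stayed under 0.05 in 1 of 10 fits that left out an array, the fit without knockout 1.

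The other 3 genes of anaphase onset did not pass. Ube2c, the ubiquitin-conjugating enzyme of the anaphase-promoting complex and the brightest probe set of the role, gave 13.64, 13.69, 13.78, 13.72 and 13.76 in controls and 13.67, 13.74, 13.68, 13.68 and 13.64 in knockouts. It had the smallest spread of the 45 genes (within-group SD 0.048), its knockout arrays lay inside the control range to 2 decimals, and its log2 change was -0.04 (interval -0.12 to 0.04, limma adjusted p = 0.572). Cdc20, the activator of the complex that the checkpoint restrains, had 0.10 (adjusted p = 0.406). Espl1, separase itself, had -0.25 (SE 0.12, adjusted p = 0.272), with 4 knockout arrays below every control.

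None of the 6 cytokinesis genes passed. Ect2, the exchange factor that activates RhoA at the cleavage furrow, gave 10.74, 10.96, 10.86, 10.86 and 10.81 in controls and 10.84, 11.19, 11.22, 11.19 and 11.16 in knockouts. Knockout 1 lay within the controls, while the other 4 lay above all of them; the log2 change was 0.27 (SE 0.08, interval 0.10 to 0.44, limma adjusted p = 0.0930). Anln, anillin, the scaffold of the contractile ring and the brightest probe set of the role, gave 11.78, 12.16, 11.81, 11.97 and 11.72 in controls and 11.93, 11.86, 12.01, 12.003 and 12.03 in knockouts. All knockout values lay inside the control range, with a log2 change of 0.08 (interval -0.11 to 0.26, adjusted p = 0.609). Kif20a, the kinesin that brings passenger proteins to the midzone, had 0.20 (adjusted p = 0.148). Of the centralspindlin pair, the kinesin Kif23 had -0.20 (interval -0.42 to 0.02, adjusted p = 0.276). Racgap1 had 0.02 (interval -0.13 to 0.17, adjusted p = 0.865). A second probe set above the median signal had 0.38 for Kif23 and -0.01 for Racgap1. Prc1, which bundles midzone microtubules, had -0.05.

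**Figure D3:**
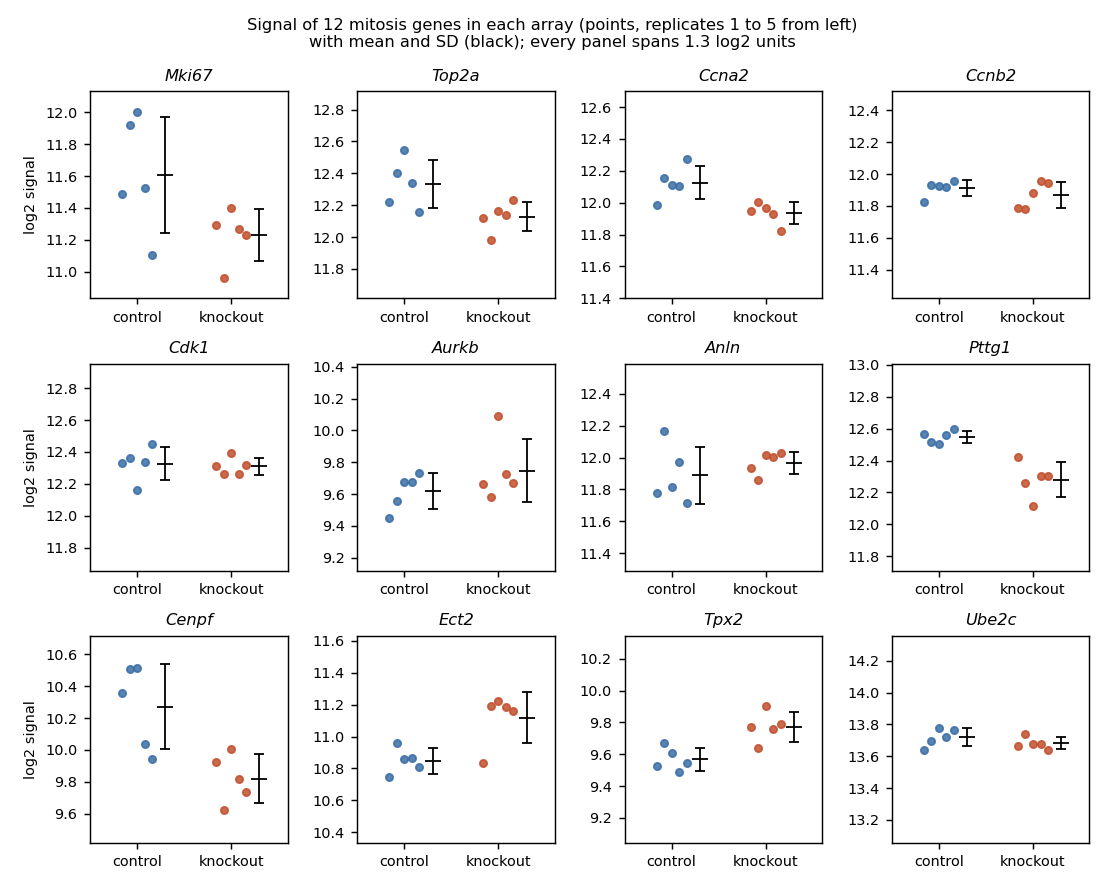
Log2 signal (y axis, each panel spanning the same number of log2 units) of 12 mitosis genes in each of the 5 control arrays (blue) and 5 knockout arrays (orange), replicates 1 to 5 from left, with mean and SD in black. Pttg1 is the panel without overlap between genotypes; Mki67 and Cenpf show the widest control spread, and Cdk1, Ccnb2 and Ube2c the narrowest ranges.

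The genes shifted together from array to array within each genotype. The mean signal of the 45 genes was 10.49, 10.68, 10.57, 10.60 and 10.60 in control replicates 1 to 5 and 10.53, 10.53, 10.69, 10.59 and 10.64 in knockout replicates 1 to 5. Group means were 10.59 ± 0.07 and 10.60 ± 0.07 (SD, n = 5), so both genotypes had a low and a high array and the same centre. Control 1 was the lowest control for 25 of the 45 genes (55.6%, beside 13.2% of all genes), and control 2 the highest for 19 (42.2%, beside 13.4%). Knockout 3 was the highest knockout for 23 (51.1%, beside 15.0%) and knockout 2 the lowest for 19 (42.2%, beside 14.5%). Mki67, Top2a and Cenpf had another order, with controls 2 and 3 highest and control 5 lowest. Genes of the list therefore do not give independent readings of a heart pool.

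**Figure D4:**
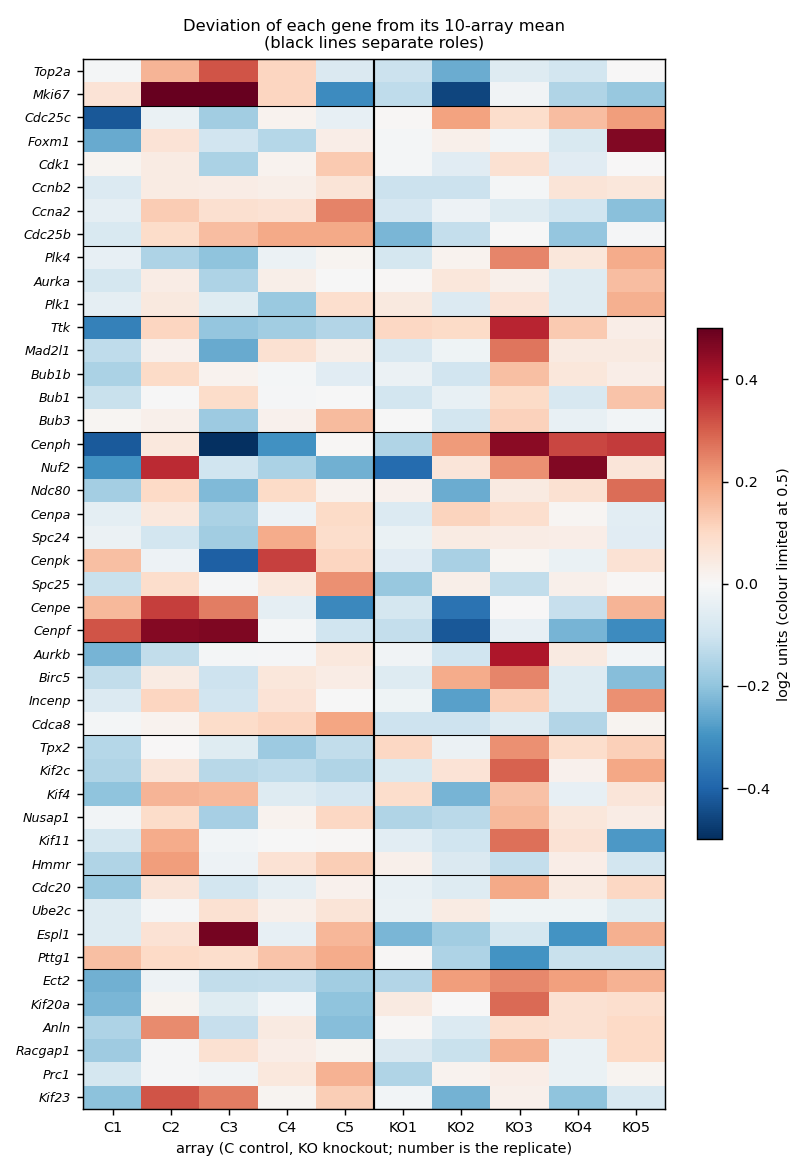
Log2 deviation of each of the 45 genes (rows, ordered by role) from its 10-array mean in every array (columns; C control, KO knockout, number is the replicate), colour limited at 0.5 log2 units. The control 1 column is mostly blue and the knockout 3 column mostly red, while Pttg1 is red in all controls and Mki67 and Cenpf are darkest in controls 2 and 3.

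Several measures outside the list also differed between arrays. The control probe set for 18S ribosomal RNA read 8.06 to 11.4 in controls and 7.84 to 8.57 in knockouts, with control 3 the only control in the knockout range. The 18S signal thus nearly separated the genotypes, so a fit holding both cannot well tell them apart. With that signal as a covariate, the median log2 change of the 45 genes was 0.12, 30 of them positive, and none passed. The proliferation markers moved the other way, Mki67 from -0.38 to -0.70 (limma adjusted p = 0.129) and Top2a from -0.21 to -0.37 (adjusted p = 0.0945), and Cenph moved from 0.48 to 0.75 (adjusted p = 0.0868). Afp, a liver transcript, read 8.94 to 12.67 in controls and 8.78 to 14.52 in knockouts. It was lowest in control 2 and knockout 3, the arrays with the highest mean of the mitosis genes. The other arrays did not keep this inverse order. Knockouts 1 and 2 had the next lowest Afp among knockouts (10.44 and 11.22) and the lowest means (both 10.53). Control 5 had the highest Afp among controls and a mean second only to control 2. Ttr and Apoa1, the next of the 6 liver and lung markers by signal, were also lowest in control 2 among controls and in knockout 3 among knockouts, and none of the 6 passed. Of 12 cardiomyocyte markers 3 fell (25%, beside 0.945% of all genes) and none rose, with a median log2 change of -0.21; the mean of the 12 was 14.9 to 15.0 in controls and 14.7 to 14.8 in knockouts. The brightest of them, the sarcomere genes Actc1, Tnnt2 and Myl2, had log2 changes of -0.13, -0.12 and -0.23, and Myl2 passed (limma adjusted p = 0.0291). The part of these measures in the values of the mitosis genes was not tested beyond the fits named here. No gene of the endothelial (10), fibroblast (8), smooth muscle (6), macrophage (8), erythroid (9) or neural crest (4) lists passed, and of 8 epicardial markers Tcf21 rose (log2 change 0.61, limma adjusted p = 0.0376).

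**Figure D5:**
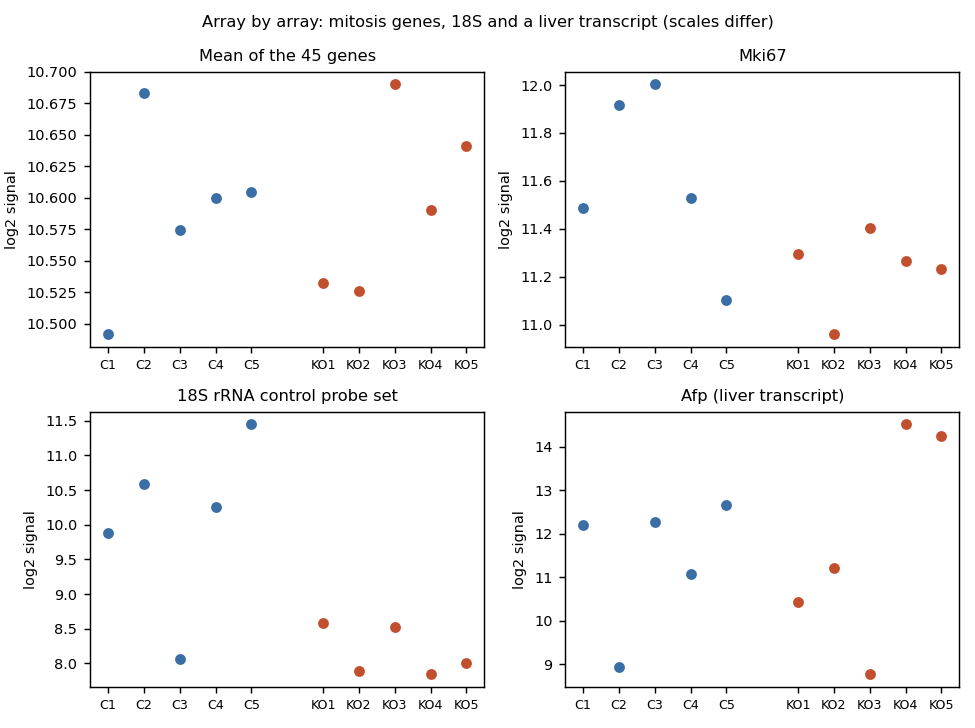
Log2 signal (y axes differ) in each array (C control, KO knockout) of the mean of the 45 mitosis genes, Mki67, the 18S ribosomal RNA control probe set and Afp. The mean of the 45 genes has nearly the same range in both genotypes, and 18S is high in 4 of the 5 controls. Afp is lowest in control 2 and knockout 3, where that mean is highest. Knockouts 1 and 2, next lowest in Afp among knockouts, have the lowest means.

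More than 1 probe set was available for many genes. The 45 genes had 101 probe sets, 71 of them above the median signal, and 16 genes had a single one. Of 20 genes with several above that level, the log2 changes had the same sign in 10 and mixed signs in 10. Kif2c was uniform, with 3 probe sets at 0.20 to 0.34, while Kif23 had -0.20 and 0.38 and Hmmr ran from -0.09 to 0.18. Tested one by one among 34945 probe sets, 1 member probe set was called higher, the dimmest of the 3 for Plk4, with 7.999 ± 0.173 in controls, 8.55 ± 0.21 in knockouts, 0.55 higher in log2 units (SE 0.11, limma adjusted p = 0.0490). The only one called lower was that of Pttg1 described above. The brighter Plk4 probe sets had 0.17 and 0.21 and did not pass, so all 3 had the same sign.

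Other genes of mitosis came from 6 further lists, of which 134 of 136 genes were measured. In them 5 genes rose, 1 fell and 128 did not pass (4.48% called, beside 2.58% of all genes), and the median log2 change was 0.03. With single arrays left out the calls numbered 0 to 18, the 18 without knockout 1. The share of all genes called in those fits is not given. The 29 further kinetochore genes held 4 of the rises (13.8%, beside 1.63% of all genes called higher), with a median of 0.19. These lists were chosen with earlier results of these data known, so their shares are a description only. Cenpc1, which links the centromere to the outer kinetochore, had a log2 change of 0.36 (limma adjusted p = 0.0361), and Dsn1, Nsl1 and Ska1 had 0.30, 0.47 and 0.32 (adjusted p = 0.0434, 0.0442 and 0.0466). Dsn1 and Nsl1 are subunits of the Mis12 complex and Ska1 holds kinetochores on microtubules. Ska1 has 3 probe sets and did not pass with probe set means per gene or with the most variable probe set. Zwint, the brightest gene of that list, had -0.08 and did not pass.

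The remaining lists held few calls. Of 20 condensin and cohesin genes 1 rose, the condensin II subunit Ncapd3 (0.37, limma adjusted p = 0.0445), while Smc4, the brightest, had 0.21. Of 27 further spindle genes 1 fell, the microtubule plus-end protein Clasp1 (-0.50, adjusted p = 0.0226), and Kif22 had 0.05. Ncapd3 has 3 probe sets and Clasp1 has 4. Neither passed with probe set means per gene or with the most variable probe set. None of 17 anaphase-promoting complex genes passed; the smallest p was that of Anapc13 (-0.25, adjusted p = 0.0544), and Ube2s had -0.25. None of 23 further regulators of entry and exit passed (Depdc1a 0.53, adjusted p = 0.0876; Cks1b 0.00). Nor did any of 18 further genes of cytokinesis and abscission (Pdcd6ip -0.28, adjusted p = 0.143; Septin7 0.06).

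Regulators and earlier stages of the cycle are set beside the list for scale. Of 12 subunits of the MuvB, DREAM and B-Myb complexes none passed (E2f5 0.47, limma adjusted p = 0.0572; Rbbp4 -0.12). Of 8 inhibitors of cyclin-dependent kinases 1 rose, Cdkn1a, which encodes p21: it was 1.82-fold higher in knockouts (log2 change 0.86, SE 0.18, adjusted p = 0.0396), with knockout 3 inside the control range and the other 4 above it. Cdkn1c, the brightest inhibitor, had -0.16 and did not pass. Of 42 DNA replication genes 4 rose (9.52%, beside 1.63% of all genes) and none fell, with 34 positive and a median log2 change of 0.09, beside 0.025 over all genes. They were the helicase subunit Mcm4 (0.64, adjusted p = 0.0440), the primase subunit Prim2 (0.54, adjusted p = 0.0373), the clamp loader subunit Rfc4 (0.33, adjusted p = 0.0329) and the origin recognition subunit Orc4 (0.23, adjusted p = 0.0319); Pcna had -0.01. Of 12 genes of G1 1 rose, cyclin E2, Ccne2 (0.44, adjusted p = 0.0451), and Ccnd2 had 0.12. These lists too were chosen with earlier results known, and whether they differ from the mitosis genes was not tested.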

How the data were processed

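Whole embryonic hearts at 13.5 dpc were measured on 10 arrays, 5 control and 5 Hccs knockout pools. The values are log2 probe set signals that the authors deposited; RMA and Partek are named in the submitters' processing notes, without versions or settings, and RMA usually includes background correction and quantile normalization, so a shift shared by all genes may not be seen. Array medians were 3.65 to 3.76, and 0 value columns were left unmapped. Of 45101 probe sets, 64 array controls were set aside, 34945 had 1 gene symbol, 932 several and 9160 none; the brightest of a gene stood for it.

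All 18193 genes were fitted with limma 3.58.1 (R 4.3.3; lmFit and eBayes, genotype only) and p-values adjusted by Benjamini-Hochberg over all of them; intervals are 95%. The fit was run on simulated data in which each gene varied independently. Measured genes shifted together from array to array, so that run does not gauge false calls here. Tables and plots used Python 3.11.15, pandas 2.3.3 and matplotlib 3.10.9. Precision is limited by 5 arrays a genotype. The labels call the samples biological replicates of pooled hearts. Same-numbered arrays did not deviate together (correlations -0.09 to 0.08), so the numbers were not taken as pairs. Alternatives were a replicate block, other scalings, filters and probe set rules, array weights, 18S and Afp as covariates, a stricter threshold and leaving out arrays.

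The genes and gene lists were chosen with earlier results of these data known. Per-array values are given for genes that passed, the brightest of each role and Mki67, Top2a, Cdk1, Ccnb2, Aurkb and Anln; Ccna2, Ttk, Cenpf, Cenph, Tpx2 and Ect2 were added after their values were seen. From each other list up to 3 genes that passed, else the one with the smallest p, and the brightest that did not pass are named, with Ska1 and Mcm4 added to complete their lists. Of each cell type list the 3 brightest genes were to be named; this was kept for the cardiomyocyte and liver lists, and Tcf21 is the only other one printed.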

Additional observations from a re-analysis of the deposited data

Results flagged for a closer look

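In 6 of 92 groups of 5 arrays (the mitosis genes and Hccs, 2 genotypes) 1 array stood apart, with a gap to its nearest neighbour that took a larger share of the group's whole range than Dixon's 95% critical value; chance gives about 1 in 20 groups. Kif2c read 10.24 in control 2 against 10.06 in the next control, a gap of 0.882 of the range. Ect2 read 10.84 in knockout 1 against 11.16 in the next, 0.831 of the range. Foxm1 read 7.52 in knockout 5 against 7.09, 0.809 of the range. Ccnb2 read 11.82 in control 1 against 11.92, 0.740 of the range. Aurkb and Ttk were both highest in knockout 3, at 10.09 against 9.73 (0.720 of the range) and at 9.68 against 9.43 (0.718 of the range).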

How the results depend on the processing

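The count of mitosis genes past the threshold (1) became 0 with the replicate block, median centring, probe set means per gene, the 18S covariate, both arrays numbered 3 left out, a threshold of 0.01, and the 2 knockout arrays brightest in Afp left out; it became 2 among genes above the median level (Cenpf and Pttg1) and 5 with array weights (Cenph, Ect2, Tpx2 and Ttk higher, Pttg1 lower), and ran from 0 to 3 with single arrays left out (3 without knockout 1: Cenph and Ect2 higher, Pttg1 lower). With the most variable probe set it was 1, Plk4, and Pttg1 turned to 0.15 (adjusted p = 0.412). Over 23 alternatives Pttg1 kept its call in 6 and lost it in 16, with adjusted p from 0.0107 to 0.688; 38 of the 45 genes were called in none of the 22 alternatives at a threshold of 0.05. The other mitosis genes past the threshold (6) were 0 with the replicate block and with both arrays numbered 3 left out. They were also 0 at 0.01 and with the Afp arrays left out. They were 2 with 18S, 12 above the median level and 17 with array weights. With single arrays left out they ran from 0 to 18 (18 without knockout 1). With probe set means per gene they were 4 (Cenpc1, Dsn1, Kif20b and Nsl1). The most variable probe set also gave 4 (Cenpc1, Dsn1, Nsl1 and Septin7). Genes without overlap (1) were 3 after quantile normalization and 0 with the mean of probe sets. They were 4 without both arrays numbered 3, 3 without the Afp arrays and 1 to 5 with single arrays left out. The 1 gene was Cdc25c, higher, with median centring and Plk4, higher, with the most variable probe set. Pttg1 overlapped in both. Smaller groups separate more easily, and the share of all genes is not given for these alternatives. The median change moved only with 18S, to 0.12. Hccs lost its call at -0.55 with the replicate block (adjusted p = 0.0735) and at 0.01, -0.50 with 18S, -0.59 without both arrays numbered 3 and -0.42 without the Afp arrays; with single arrays left out it ran from -0.60 to -0.48 and lost the call without control 2 or 3 or knockout 2 or 4. The cause was not tested. The share of all genes called in each alternative is not given, so these counts are not read as results about mitosis genes. The 2 Afp alternatives were chosen after seeing the data.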
